A study of Mus musculus with 4 samples.

Results

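Transcripts of 10 mTOR pathway genes were followed in mouse embryonic stem cells with and without the chromatin remodeler Chd1. The genes were chosen by name for their place in the pathway: Mtor, Rptor, Rictor, Mlst8, Tsc1, Tsc2, Rheb, Akt1s1, Eif4ebp1 and Rps6kb1. Each was 1 locus in both deposited tables, and all 10 were among the 10261 genes tested, of 11728 genes named in both tables. All cells were Rosa26CreER;Chd1fl/-, which means a Cre recombinase that tamoxifen switches on, 1 floxed Chd1 allele and 1 null allele. Chd1-null cells, labelled Chd1-/-, had received 1 µM tamoxifen for 48 to 72 h. Control cells had received ethanol, so they too carried only 1 functional Chd1 allele. Both were then expanded in serum and LIF, free of tamoxifen, over 3 to 5 passages. The protocol names 2 independently derived lines, and the libraries are labelled set 1 and set 2, with 1 Chd1-null and 1 control library in each (n = 2 per group). Total RNA was taken from equal numbers of viable cells and ERCC spike-in transcripts were added, but how these entered the scaling is not given in the sources used here. In bulk samples fewer cells of a type and less RNA per cell cannot be told apart.

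The mTOR kinase couples nutrients and growth factors to protein synthesis and cell growth. It works in a pair of complexes: mTORC1, built on the scaffold Raptor (Rptor), and mTORC2, built on Rictor, with Mlst8 in both. The Tsc1-Tsc2 complex holds mTORC1 back by keeping the small GTPase Rheb, its direct activator, in the inactive state. PRAS40 (Akt1s1) is an inhibitor bound to Raptor, 4E-BP1 (Eif4ebp1) is a repressor of cap-dependent translation that mTORC1 phosphorylates, and the kinase S6K1 (Rps6kb1) is the other classical mTORC1 substrate. In mouse embryonic stem cells the pathway is known for setting growth rate, and its inhibition can put blastocysts into a reversible pause. All of this control acts largely on proteins and their phosphorylation, which these libraries did not measure.

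Values are FPKM, fragments per unit of transcript length and of sequencing depth, so levels can be compared between genes. FPKM over all loci summed to 466994 and 518032 in the Chd1-null libraries of sets 1 and 2, against 584520 and 719549 in the controls. Read depth is unknown. Chd1 itself stood at 5.71 and 8.52 FPKM in Chd1-null cells of sets 1 and 2, against 27.6 and 17.9 FPKM in control cells, or 20.7% and 47.7% of control. The median tested gene had a log2 ratio (Chd1-null over control, of FPKM + 0.1) of -0.46 in set 1 and -0.33 in set 2. All 12 listed embryonic stem cell markers were present in every library, from 7.76 to 2088 FPKM. They summed to 2231 and 2159 FPKM in Chd1-null cells of sets 1 and 2, against 3045 and 3771 FPKM in control cells. All 12 were lower in both sets, against 72.4% of all genes. On the deposited scale 10 of 12 fell (limma adjusted p under 0.05), against 9.8% of all genes called lower. Among them were the pluripotency factors Nanog (log2 fold change -1.17, limma adjusted p = 4.3e-08) and Esrrb (-1.22, limma adjusted p = 1.9e-07). These p-values use the variance that genes of similar level share, not a gene's own spread. With no replicate block, or with one common prior variance, limma called 0 of all genes. Relative to the medians 0 of 12 passed in limma, against 0.361% of all genes. At an unadjusted p under 0.05 there were 4 of 12, all lower, against 6.29% of all genes. Of 8 fibroblast and feeder markers, the 6 analysed in both sets summed to 6.51 and 8.53 FPKM in Chd1-null cells, against 5.31 and 14.5 FPKM in control cells. Neural markers (6 of 6 analysed) summed to 31.3 and 28.5 FPKM in Chd1-null cells, against 49.5 and 34.7 FPKM in control cells. This sum was mostly Tubb3 (15.9 and 10.7 FPKM, against 34.0 and 20.9) and Nes (14.0 and 12.2, against 11.9 and 9.37), which went opposite ways. Of the 5 neural markers tested, 4 were lower in set 1, against 87.3% of all genes. In set 2 only 1 (Tubb3) was lower, against 82.4%. Trophectoderm markers (4 of 6) summed to 21.7 and 9.32 FPKM in Chd1-null cells, against 42.1 and 16.3 FPKM in control cells. Primed epiblast markers (8 of 8, most of the sum Dnmt3b and Lefty1) summed to 400.6 and 640.2 FPKM in Chd1-null cells, against 450.3 and 679.3 FPKM in control cells. The members did not all follow this sum. Fgf5, Pou3f1, Wnt3, T and Eomes were lower in Chd1-null cells of set 1 and higher in those of set 2. Of the 5 primed epiblast markers tested, 4 lay above the median log2 ratio in both sets, against 24.6% of all genes. Primitive endoderm markers (3 of 8, nearly all of it Lamb1) summed to 35.1 and 40.8 FPKM in Chd1-null cells, against 48.1 and 46.4 FPKM in control cells. Values under 0.1 FPKM do not occur in the tables, and markers missing from either set were not analysed here. The part of these markers and cell types in the results below was not tested.

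The first question was whether mTOR pathway transcripts differed, on the deposited scale, between Chd1-null and control cells. None of the 10 genes passed the test, although 8 of them were lower in Chd1-null than in control cells of each set. The median log2 ratio of the 10 was -0.59 in set 1 and -0.29 in set 2, against -0.46 and -0.33 over all genes tested. With limma, fitted to all genes with the sets as blocks and a Benjamini-Hochberg threshold of 0.05, 0 of 10 were called, against a background of 9.87% of all genes (9.8% lower and 0.0682% higher). At an unadjusted p under 0.05 there were 3 of 10 (Rictor, Tsc2 and Eif4ebp1), against 29.2% of all genes. Both Chd1-null values lay below both control values for 7 of 10 genes, against 52.6% of all genes, and above both for 0 of 10, against 0.867%. A gene was lower in both sets for 8 of 10, against 72.4%, in set 1 for 9 of 10, against 87.3%, and in set 2 for 9 of 10, against 82.4%. These shares were near those of the whole table. With each library divided by its FPKM sum, the fitted values of Tsc1, Akt1s1 and Rps6kb1 changed sign, to 0.019, 0.038 and 0.29. With 2 pairs an exact sign-flip test of a single gene cannot give a two-sided p below 0.5.

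**Figure D1:**
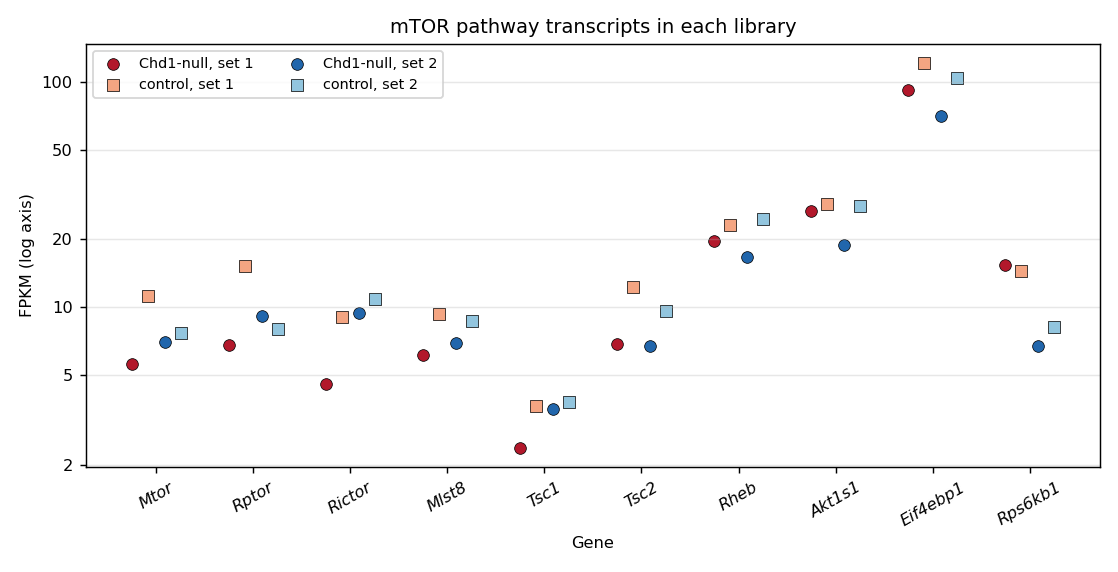
FPKM (log axis) of each of the 10 genes in each of the 4 libraries, with dark circles for Chd1-null and light squares for control cells, in red and orange for set 1 and in blues for set 2. Eif4ebp1 was the highest of the 10 in every library (70.6 to 120.9 FPKM) and Tsc1 the lowest (2.38 to 3.80 FPKM), and the gap between circle and square is widest for Mtor, Rptor and Rictor in set 1.

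The levels had the same outer order in every library. Eif4ebp1 came first, followed by Akt1s1 and then Rheb, with Tsc1 last of the 10 in all 4, and the 6 genes between changed places from library to library. Eif4ebp1 alone made up 49.2% and 45.3% of the summed FPKM of the 10 genes in Chd1-null cells of sets 1 and 2, against 48.7% and 48.8% in control cells. It lay between percentiles 92.2 and 94.1 of all tested genes, while Tsc1 lay between 21.5 and 26.9. The summed level of the 10 was 186 and 156 FPKM in Chd1-null cells, against 248 and 214 FPKM in control cells.

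Among the 10 genes, the kinase and the scaffolds of its complexes had the widest gap between the sets. In 3 of 10 the log2 ratio of set 1 was more than 0.5 below that of set 2, near the 28.4% of all genes. The difference lay at percentile 15.5 of all tested genes for Mtor and 18.5 for Rictor. Mtor had 5.64 and 7.02 FPKM in Chd1-null cells of sets 1 and 2, against 11.3 and 7.71 FPKM in control cells. Both Chd1-null values were below both controls, but the level in set 1 was 50.1% of control and in set 2 91.0%. The fitted log2 fold change was -0.56 ± 0.29 (limma SE, n = 2 pairs, adjusted p = 0.184). This SE rests on the variance that genes of similar level share. Mtor's own log2 ratios of -0.98 and -0.13 have an SD of 0.60.

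Rptor, the mTORC1 scaffold that brings substrates to the kinase, had 6.82 and 9.17 FPKM in Chd1-null cells of sets 1 and 2, against 15.2 and 7.98 FPKM in control cells. It went opposite ways: it stood at 44.7% of control in set 1 and at 115% in set 2, and the control libraries themselves differed by 1.91-fold. Its fitted log2 fold change was -0.48 ± 0.27 (limma adjusted p = 0.222), with an SD of 0.95 between the sets. The log2 ratio of set 1 minus that of set 2 was -1.35, at percentile 5.83 of all tested genes, the furthest out of the 10.

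Rictor, the scaffold that defines mTORC2, had 4.58 and 9.42 FPKM in Chd1-null cells of sets 1 and 2, against 9.02 and 10.9 FPKM in control cells. The groups overlapped, since the Chd1-null library of set 2 was above the control of set 1. Levels were 50.7% and 86.6% of control, close to those of Mtor (log2 fold change -0.58 ± 0.29, limma adjusted p = 0.157). Mlst8, a small WD-repeat subunit that stabilises the kinase domain, had 6.15 and 6.96 FPKM in Chd1-null cells, against 9.33 and 8.69 FPKM in control cells. Its groups did not overlap, and at 65.9% and 80.1% of control it lay near the median gene in both sets (-0.46 ± 0.29, limma adjusted p = 0.274).

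Promoters are shown for the 3 genes with the lowest ratios in set 1, and for Rps6kb1, which had the highest, so that their upstream sequences can be compared. Each run is the 250 bases before the gene start, 5′ to 3′ on the gene's strand, from RefSeq on GRCm38.p6 (the files use mm9, and genes were matched by symbol). Capitals mark matches on either strand to 6 motifs: an E-box (CACGTG), a cyclic AMP response element (TGACGTCA), a CCAAT box (CCAAT), a GC box (GGGCGG), the palindromic NRF1 site and a TATA box (TATAAA).
Mtor, chr4:148448332-148448581, plus strand: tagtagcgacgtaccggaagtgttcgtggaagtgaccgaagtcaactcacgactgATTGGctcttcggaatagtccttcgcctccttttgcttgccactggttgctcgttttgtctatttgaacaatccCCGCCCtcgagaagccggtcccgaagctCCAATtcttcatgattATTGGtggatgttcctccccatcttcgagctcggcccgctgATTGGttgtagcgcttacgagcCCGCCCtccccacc
Rptor, chr11:119602655-119602904, plus strand: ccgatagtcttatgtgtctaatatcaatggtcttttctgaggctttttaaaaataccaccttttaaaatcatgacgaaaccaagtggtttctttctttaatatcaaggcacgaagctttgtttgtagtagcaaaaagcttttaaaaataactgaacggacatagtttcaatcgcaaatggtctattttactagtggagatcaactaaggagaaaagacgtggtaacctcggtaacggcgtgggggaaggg
Rictor, chr15:6708131-6708380, plus strand: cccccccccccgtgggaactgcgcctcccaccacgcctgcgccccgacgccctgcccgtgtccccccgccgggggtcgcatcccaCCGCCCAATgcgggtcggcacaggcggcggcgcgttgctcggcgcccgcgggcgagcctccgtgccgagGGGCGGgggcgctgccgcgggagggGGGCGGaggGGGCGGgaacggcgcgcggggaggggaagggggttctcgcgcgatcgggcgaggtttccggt
Rps6kb1, chr11:86544808-86545057, minus strand: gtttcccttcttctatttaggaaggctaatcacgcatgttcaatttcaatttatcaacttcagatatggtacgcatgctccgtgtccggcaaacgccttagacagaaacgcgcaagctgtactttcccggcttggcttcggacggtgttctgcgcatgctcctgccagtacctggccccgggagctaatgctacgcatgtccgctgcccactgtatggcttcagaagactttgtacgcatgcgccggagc

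The Mtor window held 4 CCAAT and 2 GC boxes at 54.4% GC. The Rictor window, at 81.2% GC, held 4 GC boxes and 1 CCAAT box, which shares bases with a GC box. Neither the Rptor window, at 37.6% GC, nor that of Rps6kb1, at 52.8% GC, held any of these letters. Over the 32851 promoter windows of the same length, 33.8% held the CCAAT letters, 32.7% the GC box, 12.4% the TATA letters, 6.02% the E-box, 1.55% the cyclic AMP element and 0.782% the NRF1 site. Of the 9 genes with a window, 4 held a GC box, 2 CCAAT letters, 1 (Rheb) the E-box, and 0 any of the other 3. A match is a run of letters and not a site shown to be bound. The 3 genes lowest in set 1 had windows of unlike composition.

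In the Tsc1-Tsc2 complex and Rheb, all 3 genes had both Chd1-null values below both controls, as had 52.6% of all genes, and none passed the test. Tsc1, the stabilising partner, had 2.38 and 3.53 FPKM in Chd1-null cells of sets 1 and 2, against 3.64 and 3.80 FPKM in control cells. The groups did not overlap, but in set 2 the gap was narrow, at 93.0% of control against 65.4% in set 1 (log2 fold change -0.35 ± 0.42, limma adjusted p = 0.552). Tsc2, the subunit that acts on Rheb, had 6.86 and 6.72 FPKM in Chd1-null cells, against 12.3 and 9.60 FPKM in control cells. It had the lowest fitted value of the 10 (-0.67 ± 0.28, limma adjusted p = 0.0964), at 55.6% and 70.0% of control, and its groups did not overlap. Rheb had 19.8 and 16.8 FPKM in Chd1-null cells, against 23.1 and 24.6 FPKM in control cells. Its groups did not overlap either, and here set 2 had the wider gap, at 68.2% of control against 85.5% in set 1 (-0.39 ± 0.21, limma adjusted p = 0.206).

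Among inhibitors and substrates, Eif4ebp1 lay just outside the threshold. It had 91.6 and 70.6 FPKM in Chd1-null cells of sets 1 and 2, against 120.9 and 104.3 FPKM in control cells. The groups did not overlap, the levels were 75.8% and 67.7% of control, and the SD of its log2 ratios between the sets, 0.11, was the smallest of the 10. The log2 fold change was -0.48 ± 0.17 (limma adjusted p = 0.0502). It passed with no filter on low values (adjusted p = 0.0484), with the level trend removed (0.0335) and with the transcript length trend removed (0.0127), but not in the other alternatives with a test, where limma's adjusted p ran from 0.0505 to 0.999. Akt1s1 had 26.9 and 18.9 FPKM in Chd1-null cells, against 28.8 and 28.2 FPKM in control cells. The controls were nearly equal, and the Chd1-null library was at 93.4% of control in set 1 and 67.0% in set 2 (-0.34 ± 0.20, limma adjusted p = 0.248). Rps6kb1 had 15.4 and 6.72 FPKM in Chd1-null cells, against 14.4 and 8.15 FPKM in control cells. Its sets differed more than its groups, since both libraries of set 1 were above both of set 2, and it went opposite ways (107% and 82.5% of control, log2 fold change -0.09 ± 0.26, limma adjusted p = 0.814).

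The second question was whether any of the 10 differed from the common shift of the table. None did by the test. After each set's median log2 ratio was subtracted, the fitted values ran from -0.28 for Tsc2 to 0.31 for Rps6kb1, and limma's adjusted p was 0.998 for each of the 10. At an unadjusted p under 0.05 there were also 0 of 10, against 6.29% of all genes, and 0.361% of all genes were called (0.214% lower, 0.146% higher). The 95% limma intervals ran from -0.71 to 0.39 for Mtor, from -0.60 to 0.44 for Rptor, from -0.81 to 0.26 for Tsc2, from -0.53 to 0.36 for Eif4ebp1 and from -0.20 to 0.82 for Rps6kb1. These intervals rest on the variance that genes of similar level share, so they do not bound a gene's own values. For Rptor the values of the sets, -0.69 and 0.53, both lay outside its interval. A departure within an interval was not told apart from 0 by this fit.

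As deposited, 2 of 10 genes (Rptor and Rps6kb1) had opposite signs in the sets, against 24.8% of all genes. Relative to the medians, most of the 10 lay on opposite sides in the sets. That held for 8 of 10, against 50.7% of all genes. Mtor (-0.52 in set 1 and 0.20 in set 2), Rptor (-0.69 and 0.53), Rictor (-0.50 and 0.12), Mlst8 (-0.13 and 0.013) and Tsc1 (-0.13 and 0.23) were below the median in set 1 and above it in set 2. Rheb (0.23 and -0.22), Akt1s1 (0.36 and -0.25) and Eif4ebp1 (0.060 and -0.23) were the other way round. Tsc2 (-0.38 and -0.18) alone was below both medians, where 24.6% of all genes lay, and Rps6kb1 (0.56 and 0.056) alone was above both. Across the 10 genes, set 1 and set 2 ratios correlated at Pearson r = -0.62 and Spearman rho = -0.65 (n = 10 genes, which share 4 libraries), and across all 10261 genes at 0.031 and 0.0041.

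**Figure D2:**
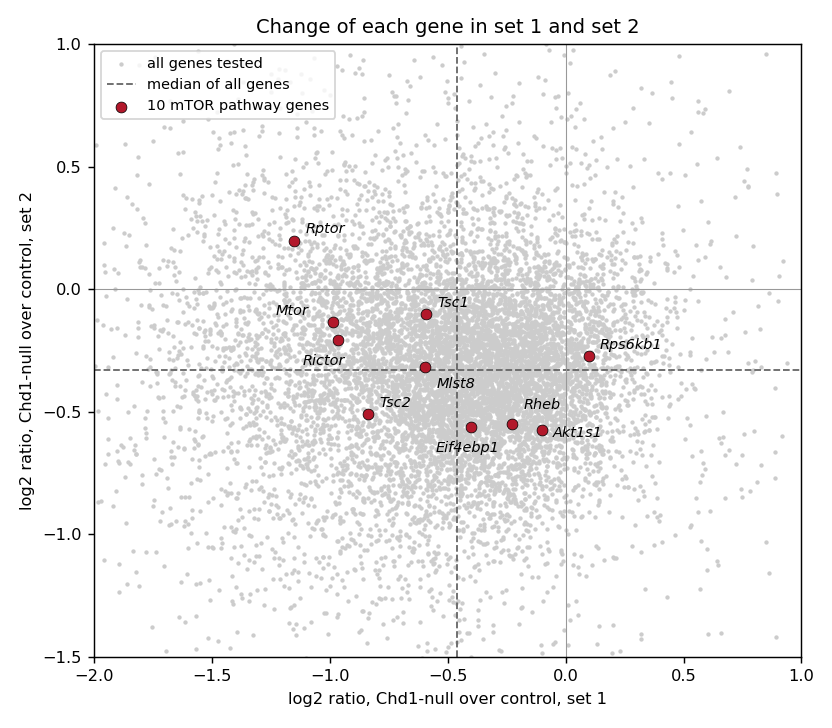
Log2 ratio of Chd1-null over control in set 1 (x axis) and set 2 (y axis) for the 10 mTOR pathway genes (red) and all genes tested (grey), with dashed lines at the medians of -0.46 and -0.33; 349 genes lie outside the axes. Rptor, Mtor, Rictor, Tsc1 and Mlst8 fall left of the vertical line and above the horizontal one, and Eif4ebp1, Rheb and Akt1s1 right of it and below.

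Transcript length moved with this split. Lengths are those of the longest protein-coding GENCODE M21 transcript, which may differ from the authors' models, and were found for all 10 genes and for 95.3% of those tested. Rheb (1784 bases), Akt1s1 (1812) and Eif4ebp1 (1997) were short, and Mlst8 had 3855 bases. Rps6kb1 (5531), Tsc2 (6266), Rptor (6594), Tsc1 (7702), Mtor (8564) and Rictor (9312) were long. The 6 genes over 5000 bases had a median log2 ratio of -0.90 in set 1 and -0.17 in set 2, close to the -0.80 and -0.19 of all 1982 genes of that length. The 4 shorter genes had medians of -0.31 and -0.56, against -0.39 and -0.37 for 7796 shorter genes. With all genes put in 10 bins by length, the bin of the longest transcripts had a median of -0.88 in set 1 and -0.14 in set 2, and the bin of the shortest -0.17 and -0.42.

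Set against the median of their own length bin, Mtor (-0.10 in set 1 and 0.0096 in set 2), Rictor (-0.081 and -0.063) and Mlst8 (-0.079 and 0.0017) lay close to genes of like length. Rptor was still 0.47 below in set 1 and 0.44 above in set 2. Rheb (0.089 in set 1 and -0.15 in set 2) and Akt1s1 (0.22 and -0.17) also stayed on opposite sides. Tsc2 (-0.16 and -0.27) and Eif4ebp1 (-0.085 and -0.16) were below their bin in both sets. Rps6kb1 was 0.77 above in set 1 and 0.034 below in set 2 (log2 ratios of 0.10 and -0.27, against -0.68 and -0.24 in its bin), and Tsc1 was 0.29 above in set 1 and 0.041 above in set 2. With the length bin medians subtracted, the ratios of the sets across the 10 genes had r = -0.34 and rho = -0.03, against -0.62 and -0.65 without. Level also moved with the change: of 10 bins by mean FPKM, the lowest had a median of -0.94 in set 1 and -0.22 in set 2 (log2 ratio), and the highest of -0.21 and -0.38. Set against their own level bin, Mtor (-0.48 in set 1 and 0.18 in set 2), Rictor (-0.46 and 0.11) and Rptor (-0.71 and 0.56) lay further off than by length. Mlst8 (-0.095 and -0.0007) lay close by level too. The part of length and of level in the results was not tested apart from the trend removals, under which 0 of the 10 passed in the relative comparison (lowest limma adjusted p = 0.754 for length and 0.812 for level).

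**Figure D3:**
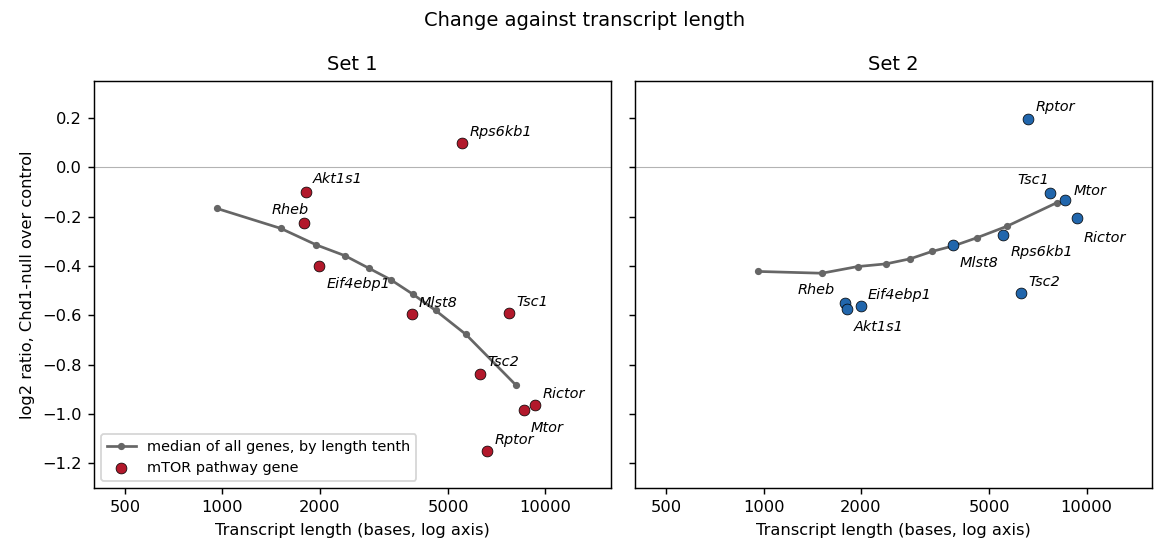
Log2 ratio of Chd1-null over control against transcript length (bases, log axis) in set 1 (left) and set 2 (right), for the 10 genes (coloured points) and for all genes in 10 bins by length (grey line of medians, each at its bin's median length). The line falls with length in set 1 (from -0.17 to -0.88) and climbs in set 2 (from -0.42 to -0.14); Mtor and Rictor lie near it in both panels, Rptor lies off it in both, and Rps6kb1 in set 1.

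Ratios between transcripts of the same library do not depend on how libraries were scaled; the pairs shown were chosen after the values were seen. Eif4ebp1 over Eif4e, the cap-binding protein that 4E-BP1 sequesters, was 0.881 and 0.777 in Chd1-null cells of sets 1 and 2, against 1.19 and 1.05 in control cells. The groups did not overlap, and the ratio was 0.738 of control in set 1 and 0.739 in set 2. Eif4e itself had 104.0 and 90.9 FPKM in Chd1-null cells, against 101.2 and 99.3 FPKM in control cells. Relative to the medians Eif4e lay at 0.50 in set 1 and 0.20 in set 2, and Eif4ebp1 at 0.060 and -0.23. The ratio therefore does not show a loss of Eif4ebp1 beyond the common shift. How many gene pairs separate the groups in this way was not counted. Most other ratios went opposite ways. Eif4ebp1 over Mtor was 16.2 and 10.1 in Chd1-null cells, against 10.7 and 13.5 in control cells. Akt1s1 over Rptor, an inhibitor over its binding partner, was 3.94 and 2.06 in Chd1-null cells, against 1.89 and 3.53 in control cells. Rptor over Rictor, the mTORC1 over the mTORC2 scaffold, was 1.49 and 0.973 in Chd1-null cells, against 1.69 and 0.733 in control cells, so this ratio separated the sets and not the groups. Tsc2 over Tsc1 was lower in both sets, at 2.88 and 1.90 in Chd1-null cells against 3.39 and 2.53 in control cells, with overlap between the groups.

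**Figure D4:**
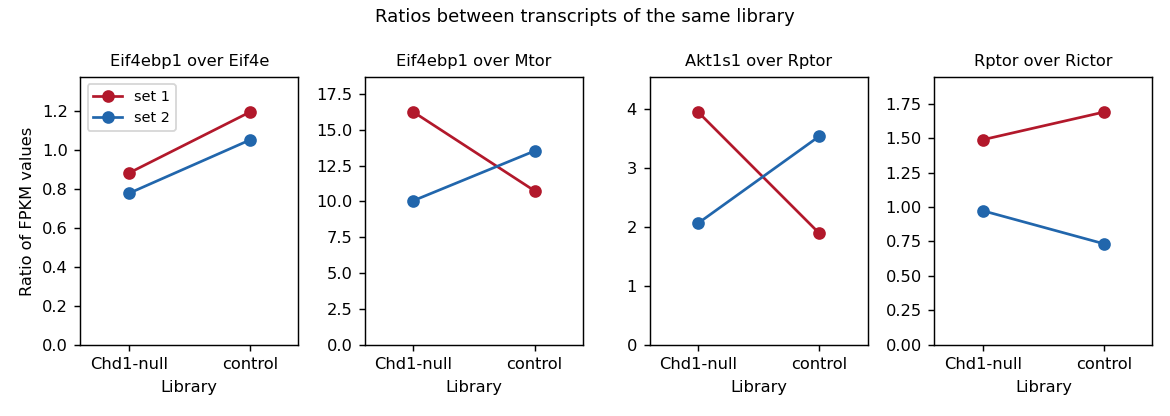
Ratio of FPKM values of a pair of genes within each library, in Chd1-null (left) and control cells (right), with red for set 1 and blue for set 2 and each axis starting at 0. The lines run the same way for Eif4ebp1 over Eif4e (0.881 and 0.777 in Chd1-null cells, against 1.19 and 1.05 in control cells) and cross for Eif4ebp1 over Mtor and Akt1s1 over Rptor.

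The gene most like Mtor among the 10 was Rictor. Likeness was the Euclidean distance between the log2 values of the 4 libraries, each set centred on the gene's own mean, so it rests on 2 independent values per gene. Rictor lay 0.053 from Mtor and Rps6kb1, the furthest, 0.77. Among 6860 genes with a mean of at least 5 FPKM the nearest were Zfp106 (0.014), Zyg11b (0.020) and Hdlbp (0.021). Rictor was 1 of 37 genes at its distance from Mtor or nearer.

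The rest of the pathway was described with 7 lists, 82 entries in all, of which 78 genes were tested. In these, 12 fell and 0 rose on the deposited scale (limma, adjusted p under 0.05), or 12 of 78 against 9.87% of all genes. Relative to the medians 0 passed, against 0.361% of all genes. The lists' median log2 fold change was -0.52, against -0.41 for all genes. At an unadjusted p under 0.05 there were 35 of 78 on the deposited scale (34 lower and 1 higher), against 29.2% of all genes, and 9 of 78 relative to the medians (5 lower and 4 higher), against 6.29%. Of the listed embryonic stem cell markers, 10 of 12 fell on the deposited scale, against 9.8% of all genes called lower. The part of these markers in the lists' values was not tested. With no replicate block, or with one common prior variance, limma called 0 of all genes, so the 12 calls rest on those choices. The SE and p of each list gene below use the variance that genes of similar level share, not its own spread.

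Among outputs to translation, 2 of 10 fell, against 9.8% of all genes called lower. In both sets 8 of 10 were lower, against 72.4% of all genes. Eif4ebp2, which encodes the 4E-BP1 paralog 4E-BP2, had 4.81 and 8.61 FPKM in Chd1-null cells of sets 1 and 2, against 20.2 and 13.6 FPKM in control cells. The groups did not overlap, with 23.8% and 63.2% of control (log2 fold change -1.35 ± 0.26, limma adjusted p = 6.1e-05, and 0.0621 relative to the medians). The log2 ratios of Eif4ebp2, -2.05 and -0.66, have an SD of 0.98, which does not enter these p-values. Eif4ebp1 exceeded Eif4ebp2 by 19.1-fold and 8.20-fold in Chd1-null cells, against 5.99-fold and 7.65-fold in control cells. Larp1, an mTORC1 target that binds terminal oligopyrimidine mRNAs, fell by 0.65 on the log2 scale (limma adjusted p = 0.0144), at 47.1% and 85.6% of control. The SD of its log2 ratios was 0.61. The list's median was -0.38.

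Among other outputs 4 of 9 fell (median -0.77), against 9.8% of all genes called lower. All 9 were lower in both sets, against 72.4% of all genes. Atg13, an autophagy initiation factor, had 3.93 and 2.44 FPKM in Chd1-null cells of sets 1 and 2, against 10.5 and 6.60 FPKM in control cells. It was the most even of the genes named here, at 37.5% and 36.9% of control (log2 fold change -1.40 ± 0.35, limma adjusted p = 0.0031). Ulk1, the autophagy kinase that mTORC1 inhibits, fell by 0.93 (limma adjusted p = 0.0152), at 28.4% of control in set 1 and 95.5% in set 2. The SD of its log2 ratios was 1.23. Tfe3, a lysosomal transcription factor kept in the cytoplasm by mTORC1, fell by 0.77 (limma adjusted p = 0.0093), and Sgk1, a kinase activated by mTORC2, by 0.61 (limma adjusted p = 0.0105).

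Among nutrient-sensing genes, 2 of 9 Rag GTPase and Ragulator genes fell (median -0.34), against 9.8% of all genes called lower. Lamtor1, the Ragulator subunit that anchors the complex to the lysosome, stood at 16.7 and 17.9 FPKM in Chd1-null cells, against 27.5 and 36.2 FPKM in control cells (log2 fold change -0.86 ± 0.21, limma adjusted p = 0.0023). Lamtor5 fell by 0.52 (limma adjusted p = 0.0473), at 92.4% of control in set 1 and 52.5% in set 2. The SD of its log2 ratios was 0.57. Relative to the medians it lay at 0.35 in set 1 and -0.60 in set 2. In the GATOR, Sestrin and folliculin list 2 of 17 fell (median -0.54), near the 9.8% of all genes. These were Nprl2, a GATOR1 subunit, by 0.79 (limma adjusted p = 0.0471), and Sesn2, a leucine sensor and stress-induced inhibitor of mTORC1, by 0.55 (limma adjusted p = 0.0333). Sesn2 was at 54.9% of control in set 1 and 84.5% in set 2, and the SD of its log2 ratios was 0.44.

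Among growth factor and PI3K-AKT inputs 2 of 15 fell (median -0.53), near the 9.8% of all genes called lower. Grb10, an adaptor that mTORC1 phosphorylates, had 75.2 and 61.4 FPKM in Chd1-null cells, against 134.5 and 93.8 FPKM in control cells (log2 fold change -0.72 ± 0.17, limma adjusted p = 0.0020). Tbc1d7, a further subunit of the Tsc1-Tsc2 complex, had 9.68 and 10.9 FPKM in Chd1-null cells, against 20.1 and 16.3 FPKM in control cells (-0.81 ± 0.24, limma adjusted p = 0.0172). It passed where Tsc1 and Tsc2 did not, and the difference between them was not tested. None of 11 LKB1-AMPK and stress inputs passed in limma (median -0.37), against 9.87% of all genes. At an unadjusted p under 0.05 there were 2 of 11, against 29.2%. Prkaa2, an AMPK catalytic subunit, had the largest change of this list (log2 fold change -1.29, limma adjusted p = 0.212). It had 0.382 and 1.07 FPKM in Chd1-null cells, against 2.36 and 1.27 FPKM in control cells. None of 7 accessory and assembly genes passed (median -0.47), and 1 of 7 had an unadjusted p under 0.05, against 29.2% of all genes. Telo2, which helps assemble the mTOR kinase, was at 59.8% and 70.0% of control (log2 fold change -0.62, limma adjusted p = 0.125).

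**Figure D5:**
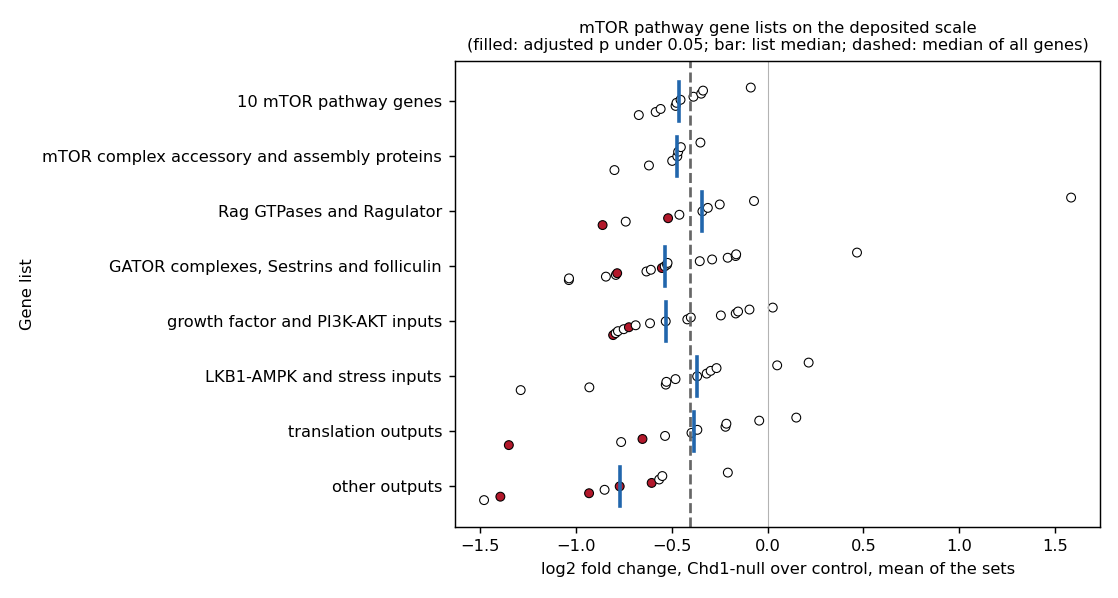
Log2 fold change of Chd1-null over control (mean of the sets, deposited scale) for each tested gene of the 10 mTOR pathway genes and of the 7 lists, with filled points for limma adjusted p under 0.05, blue bars at list medians and a dashed line at the median of all genes (-0.41). All 12 filled points lie left of the dashed line, and none belongs to the 10 genes in the top row.

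Some values are uncertain for reasons of annotation. In GENCODE M21, 6 of the 10 genes (Mtor, Rptor, Mlst8, Tsc2, Akt1s1 and Rps6kb1) overlap a gene on the opposite strand. The libraries were strand-specific, but whether the counting used strand is not given in the sources used here.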

How the data were processed

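RNA-seq of 4 mouse embryonic stem cell libraries was analysed. Per the labels' protocols, the libraries were rRNA-depleted and stranded. Cufflinks 2.2.0, Cuffdiff, TopHat2 2.0.10 and mm9 appear in the submitters' processing notes. The annotation is not given in the sources used here. The values the authors deposited were taken as FPKM, a unit inferred from those tools and the values because no header states it. The authors' deposited ratio matched the quotient of both value columns (largest relative difference 4.97e-06).

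Sets were joined by symbol, leaving out loci with no, several or repeated symbols, and genes with a mean of at least 1 FPKM were tested. limma 3.58.1 in R 4.3.3 was run on log2(FPKM + 0.1), which understates changes of low genes, two-sided, with the set as block and a level-dependent prior variance, and Benjamini-Hochberg adjustment over 10261 genes. Each set is a separate table, hence the block. The labels tie no set to a line. The p-values of the main fits measure only the spread that genes of similar level share between these samples. Deviations from group means correlated between the libraries of a set (r = 0.483 across genes). With 1 residual degree of freedom and prior degrees of freedom of Inf, a gene's own spread does not enter its p. The fit was tested on simulated data. All 10 genes were named; from each list, genes that passed (up to 4), or otherwise the gene with the largest mean change of the same sign in both sets. The members and lists were chosen with earlier results of these data known. Alternatives varied the pseudocount, filter, prior, block, scaling, trends and libraries; the length trend was added after seeing the data.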

Additional observations from a re-analysis of the deposited data

Results flagged for a closer look

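With 1 pair of libraries per set, a difference between the sets has no replicate and was not tested. The values below are the log2 ratio (Chd1-null over control) of set 1 minus that of set 2, given for genes that moved opposite ways in the sets. On the deposited scale these were Rptor, with a difference of -1.35, and Rps6kb1, with 0.37, or 2 of 10 genes, against 24.8% of all genes tested. Relative to each set's median they were Rptor (-1.22), Mtor (-0.72), Rictor (-0.63), Tsc1 (-0.36), Mlst8 (-0.15), Eif4ebp1 (0.29), Rheb (0.45) and Akt1s1 (0.61). The first 5 of these 8 genes were lower against the median in set 1 and the other 3 in set 2. The sets also differed in the Chd1 FPKM of Chd1-null cells, at 20.7% of control in set 1 and 47.7% in set 2. The Chd1 values of the control libraries themselves differed by 1.54-fold. Whether the Chd1 transcript counted in Chd1-null cells was intact was not measured. The change by transcript length differed between the sets too. The part of Chd1 and of length was not tested.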

How the results depend on the processing

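No alternative with a test called any of the 10 genes higher, and none called any of them in the relative comparison. On the deposited scale 1 was called lower (Eif4ebp1) with no filter on low values, with the level trend removed and with the transcript length trend removed, and 0 under the others. Over all genes, 1006 were lower and 7 higher as reported. With 4 higher at a pseudocount of 1, 225 and 2 at a mean of at least 5 FPKM, 40 and 33 with each library divided by its sum, 11 higher with the level trend removed and 1757 lower with the length trend removed, these counts moved by over 1.5 times. With one common prior variance, and with no replicate block, 0 were lower and 0 higher (1718 and 1043 at an unadjusted p under 0.05). In the relative comparison 22 were lower and 15 higher. There were 3 and 2 at a mean of at least 5 FPKM, 4 higher with the level trend removed, and 0 and 0 with one common prior variance, with no replicate block and with the length trend removed (614, 154 and 797 unadjusted). The cause was not tested.

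The median log2 fold change of the 10 was -0.47, and -0.093 with each library divided by its sum, a scaling that moved the median of all genes to -0.034. Without one set, or without one library and no replicate block, it ranged from -0.59 to -0.29, and relative to the medians from -0.13 to 0.050, where it was -0.071 as reported; it was above 0 without set 1 and without the control library of set 1. Leaving out a library gave counts of 0 to 0 over all genes on both scales. Without one set Eif4ebp1 was at -0.23 or 0.060 relative to the median. Sets left out whole give a value and no test; in fits without one library the lone library is assumed to vary like the others. Depth is unknown, so no counting error can be given.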
